A study of Gallus gallus with 20 samples.

Results

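The epithelium of scale-forming skin was compared with that of feather-forming skin at the same age, embryonic day 9 (E9). The comparison was read from 5 of the 20 Affymetrix chicken arrays of the study, chosen by their titles: 2 arrays of E9 scale epithelium (E9se) and 3 of E9 feather epithelium (E9fe). All embryos were of the white leghorn breed, no genetic change or treatment was applied, and scale skin came from the metatarsal region and feather skin from the dorsal region. Epithelium and mesenchyme of dissected, pooled skins were separated with EDTA, so each array is a bulk level over pooled tissue, in which fewer cells of a type and less RNA per cell cannot be told apart. The submitters call E9fe differentiated and E9se undifferentiated, so region and stage of appendage formation differ together in an age-matched pair and cannot be told apart. The other arrays hold E7 feather epithelium (E7fe, 2 arrays), E11 scale epithelium (E11se, 3 arrays) and the mesenchyme of the same regions and ages (E7fm and E9sm, 2 arrays each, E9fm and E11sm, 3 each). Levels are log2 values, on which a difference of 1 is a factor of 2.

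Feathers and scales both form by exchange of signals between an epithelium and the mesenchyme below it. In dorsal skin, epithelial thickenings called placodes appear and grow into buds, in which the epithelium makes Sonic hedgehog (SHH), a secreted ligand that the bud mesenchyme answers. Scales of the metatarsus form later on the leg, whose ectoderm also carries limb patterning genes such as the transcription factors SP8, DLX5 and DLX6 of the apical ridge and EN1 of the ventral side.

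The 5 arrays were epithelial by their defining markers, but the array labelled E9fe replicate 1 stood apart from the other E9fe arrays. The levels of EPCAM and CDH1, both epithelial adhesion proteins, were 12.93 to 13.09 and 12.29 to 12.63 on the 5 arrays, those of TP63, the transcription factor of stratified epithelium, 10.64 to 11.25, and those of KRT5, the basal keratin, 12.20 to 13.15. Over all probe sets, E9fe replicate 1 correlated at 0.988, 0.978 and 0.978 with E11se replicates 1, 2 and 3 and at 0.981 and 0.985 with the E9se arrays. With E9fe replicates 2 and 3 it correlated at 0.972 and 0.974, while those correlated at 0.990 with each other. E11se replicate 1 correlated at 0.977 and 0.985 with the other E11se arrays, and what it shares with E9fe replicate 1 was not tested. E9fe replicate 1 also had the highest dermal marker sum of the 5 arrays. The log2 of the summed levels of 33 dermal and mesenchymal markers was 16.64 there, 15.47 and 15.49 in E9fe replicates 2 and 3, and 16.21 and 16.22 in E9se, against 17.04 to 17.51 in the mesenchymal arrays. TWIST2, a dermal transcription factor, was at 9.39 in E9fe replicate 1, 3.86 and 3.34 in the other E9fe arrays and 7.36 and 5.88 in E9se, against 12.07 to 12.96 in E9 mesenchyme. By this sum and TWIST2, dermal RNA was also higher in E9se than in E9fe replicates 2 and 3, but not every marker showed it. PDGFRA, a receptor of dermal cells, was at 5.29 and 4.94 in E9se and 4.85 and 4.79 in those E9fe arrays. A sum of levels weighs bright genes most, and some bright dermal genes hardly separated the compartments. DCN was at 12.96 to 13.38 on the 5 arrays and 13.12 to 13.63 in E9 mesenchyme. COL1A2 was at 12.825 to 14.10 and 13.21 to 14.23. Of the 33 markers, 5 rose, 2 fell and 26 did not pass without E9fe replicate 1. The part of dermal RNA in the differences given here was not tested. The log2 of the summed levels of 18 endothelial markers was 9.66 to 9.86 on the 5 arrays and 10.97 to 14.01 in mesenchyme, with CDH5 at 3.27 to 4.87 but PECAM1 at 7.04 to 7.67 on the 5 arrays. For 24 skeletal muscle markers it was 9.84 to 10.13 against 9.99 to 12.36, with MYOD1 at 3.17 to 3.66. On E9fe replicate 1 several genes, SP8 and SHH among them, lay at the scale level against its label. The label was followed, but whether it is right is in question, and every value with all arrays rests on it. The array was singled out from these same values, so p-values without it are no independent evidence.

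With all arrays, few genes separated the scale from the feather epithelium at E9. In limma's fit, 29 of 38439 probe sets passed an adjusted p of 0.05 (0.0754%), 22 higher and 7 lower in E9se, and 2841 had an unadjusted p below 0.05. Counting each gene once, by its brightest probe set, 13 of 13009 genes passed (0.0999%), 9 higher (0.0692%) and 4 lower (0.0307%). Without E9fe replicate 1, 965 probe sets passed (2.51%), 509 higher and 456 lower in E9se, which included all 29 of the first count. Counted by gene, 510 passed (3.92%), 260 higher (2.00%) and 250 lower (1.92%). Levels of the 2 groups did not overlap for 28.1% of all genes with every array and for 49.2% without E9fe replicate 1, so a lack of overlap alone says little here. More than 5-fold apart were 59 probe sets with all arrays (0.153%) and 200 without that array (0.520%). The count with all arrays also depended on other arrays. Leaving out E9se replicate 1 gave 0 probe sets in limma (1520 at an unadjusted p below 0.05), leaving out E9fe replicate 2 gave 5, E9fe replicate 3 gave 9 and E9se replicate 2 gave 32. Without E9fe replicate 1, leaving out one more array left 439 to 508 probe sets. Differences below are E9se minus E9fe with the standard error of limma's fit (±), and are given without E9fe replicate 1 unless said otherwise. For those that passed without it, the value with all arrays follows. No gene passed with all arrays that did not pass without E9fe replicate 1.

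In the 13 genes that passed with all arrays, E9fe replicate 1 lay outside the scale arrays on the side of the other feather arrays. Passing with all 3 feather arrays favours such genes, so this follows in part from the selection. For BMX, CDK14, GPM6A and NOTUM that array was still nearer to the E9se mean than to the mean of E9fe replicates 2 and 3. Lower in scale epithelium was NOTUM, a secreted enzyme that inactivates WNT ligands, at 6.73 and 6.26 in E9se and 7.62, 8.84 and 8.70 in E9fe (difference -1.89 ± 0.33, adjusted p = 0.046, all arrays). CDK14, a cyclin-dependent kinase that acts on the WNT co-receptor LRP6, was at 5.70 and 4.90 in E9se and 6.45, 7.91 and 8.31 in E9fe (-2.26 ± 0.38, adjusted p = 0.046). Both genes were at the level of E9fe replicates 2 and 3 or slightly below it in E7fe as well (8.30 and 8.10 for NOTUM, 7.68 and 7.62 for CDK14). In E11se they parted: NOTUM was at 8.41 to 9.17 and CDK14 at 4.86 to 5.07. SGCD, a sarcoglycan of the membrane complex that binds the matrix, fell by 2.19 (adjusted p = 0.0062), with all 3 feather arrays between 6.98 and 7.30 and scale at 5.12 and 4.81. In E9 mesenchyme SGCD was at 10.24 to 10.76 and CDK14 at 9.39 to 9.85, above all 5 epithelial arrays. PTPRU, a receptor tyrosine phosphatase of cell contacts, fell by 1.50 (adjusted p = 0.047). Without E9fe replicate 1 the differences were -2.27 for NOTUM, -2.81 for CDK14, -2.18 for SGCD and -1.70 for PTPRU, with adjusted p values of 1.3e-05 to 0.0020. Only 1 of 4 probe sets of SGCD and 1 of 3 of CDK14 passed, in either fit. For NOTUM and PTPRU 1 of 2 passed with all arrays and 2 of 2 without E9fe replicate 1.

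Among the 9 genes higher in scale epithelium with all arrays, FABP7, a fatty acid binding protein known from glia, was at 7.68 and 7.36 in E9se against 5.67, 5.71 and 5.28 in E9fe, a difference of 1.97 ± 0.28 (adjusted p = 0.017). The 3 feather arrays lay closer to each other than to either scale array. GPM6A, a membrane glycoprotein of neurons, was at 9.36 and 9.17 against 7.77, 6.23 and 6.01 (2.59 ± 0.45, adjusted p = 0.047), here with E9fe replicate 1 in between. In E7fe both were nearer to the scale level (6.85 and 6.61 for FABP7, 8.03 and 8.71 for GPM6A) and in E11se at or below the feather level (3.91 to 5.14 and 5.04 to 5.83). PGR, the progesterone receptor, rose by 1.62 (adjusted p = 0.046), and FSTL5, a follistatin-like secreted protein, by 1.76 (adjusted p = 0.046). The kinase gene BMX rose by 2.06, the lymphocyte receptor genes BTLA and TNFRSF18 by 1.83 and 1.53, the signalling adaptor gene PIK3AP1 by 1.33 and the glycosyltransferase-like gene GALNTL6 by 1.21, with adjusted p values of 0.0051 to 0.047. The differences without E9fe replicate 1 were 2.02 for FABP7, 3.14 for GPM6A, 1.87 for PGR, 1.98 for FSTL5, 2.63 for BMX, 2.001 for BTLA, 1.78 for TNFRSF18, 1.37 for PIK3AP1 and 1.15 for GALNTL6, with adjusted p values of 2.2e-06 to 0.0041. Apart from GPM6A and FABP7 these genes stayed below 7 log2 units on all 5 arrays, with an array median of 5.62 to 5.69 over all probe sets. For GPM6A 1 of 4 probe sets passed with all arrays and 3 of 4 without E9fe replicate 1, and for TNFRSF18 1 of 3 in either fit. The others have 1 probe set each. Chosen after its values were seen, SERPINB2, a serine protease inhibitor, had the largest difference of the 29 probe sets, 3.19 and 2.78 on 2 of its 4 probe sets. Its brightest probe set missed the threshold (1.95 ± 0.36, adjusted p = 0.054) and passed without E9fe replicate 1 (2.10, adjusted p = 0.0070). The plot of the 13 genes shows the open diamonds of E9fe replicate 1 on the feather side of both scale arrays.

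**Figure D1:**
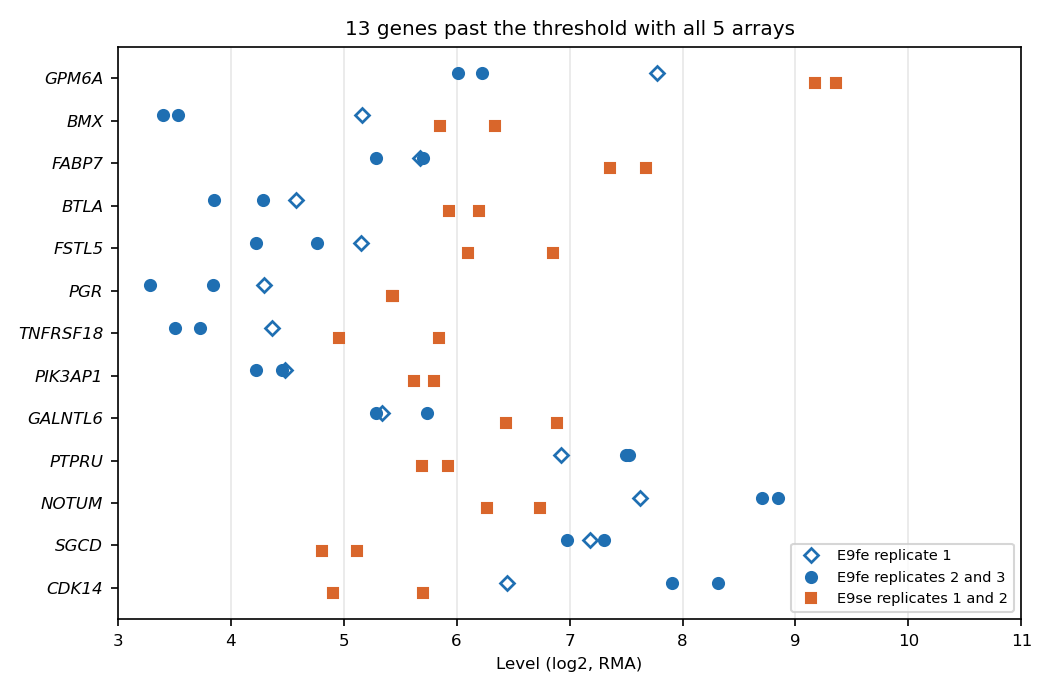
Levels (log2, x axis) of the 13 genes (y axis) that passed the threshold with all arrays, with 1 symbol per array for E9fe (3 arrays) and E9se (2 arrays). In every row the 2 scale arrays lie outside the range of the 3 feather arrays.

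Without E9fe replicate 1, a group of 3 limb ectoderm transcription factors was higher in scale epithelium. SP8, a zinc finger factor needed for signalling by the apical ridge of the limb, was at 9.50 and 10.14 in E9se and 3.98 and 4.01 in E9fe replicates 2 and 3 (difference 5.83 ± 0.44, adjusted p = 2.2e-06, 56.9-fold), the largest of the 510 genes. E9fe replicate 1 was at 10.16, beside the scale arrays, and with it the difference was 3.77 ± 1.22 (adjusted p = 0.33). SP8 was low in E9 scale mesenchyme (4.14 and 4.59), low in E7fe (3.61 and 3.88) and high in E11se (9.62 to 10.05). DLX6, an apical ridge homeobox factor, was at 7.35 and 6.77 in E9se, 4.79 and 4.09 in E9fe replicates 2 and 3 and 6.70 in replicate 1 (2.62 ± 0.41, adjusted p = 0.0019 without it). EN1, the homeobox factor of ventral limb ectoderm, was at 7.26 and 7.55 in E9se, 4.99 and 5.02 in E9fe replicates 2 and 3 and 7.53 in replicate 1 (2.40 ± 0.34, adjusted p = 0.00092). Unlike SP8, it was high in E9 mesenchyme of both regions (8.02 to 8.825 in feather, 7.505 and 8.18 in scale). For all 3 factors E9fe replicate 1 lay within the scale range or close beside it, and E11se was high too (6.47 to 7.60 for DLX6, 7.30 to 8.24 for EN1). With E9fe replicate 1 the differences were 1.86 for DLX6 and 1.56 for EN1, with adjusted p values of 0.28 to 0.43.

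Other limb genes did not move with these. DLX5, the partner of DLX6, was at 10.49 and 10.24 in E9se and 10.71 and 10.35 in E9fe replicates 2 and 3 (difference -0.17 ± 0.52, adjusted p = 0.9996). WNT7A, the dorsal limb ectoderm ligand, differed by 0.66 ± 0.25 (adjusted p = 0.30). The hindlimb factors PITX1 and TBX4, which act in limb mesenchyme, were low in all epithelium but E9fe replicate 1: TBX4 was at 6.53 there, 4.13 and 4.14 in E9fe replicates 2 and 3 and 4.75 and 4.31 in E9se, against 11.16 and 10.17 in E9 scale mesenchyme. PITX1 was at 6.97 on E9fe replicate 1, 4.69 and 4.35 in the other E9fe arrays and 5.66 and 4.94 in E9se. Their differences were -0.40 and -0.04 with all arrays and 0.39 and 0.77 without E9fe replicate 1, none passing. The forelimb factor TBX5 did not pass (0.28, adjusted p = 0.96). A further 3 of the limb genes were lower in E9se. These were MSX2, a homeobox factor induced by BMP signals (7.84 and 8.09 in E9se, 10.79 and 11.30 in E9fe replicates 2 and 3, 8.29 in replicate 1, difference -3.09 ± 0.25, adjusted p = 4.0e-06), LMX1B, a factor of dorsal limb identity (-2.74 ± 0.57, adjusted p = 0.014), and IRX1, an Iroquois homeobox factor (-1.59 ± 0.29, adjusted p = 0.0052). On E9fe replicate 1 LMX1B was near the scale level (6.11 against 5.95 and 5.93) and IRX1 between the groups (7.51 against 6.87 and 6.41 in E9se and 7.87 and 8.59 in the other E9fe arrays). With all arrays they differed by -2.17 for MSX2, -1.88 for LMX1B and -1.35 for IRX1, with adjusted p values of 0.099 to 0.46. Of 22 limb genes on the array, 3 rose, 3 fell and 16 did not pass without E9fe replicate 1 (27.3% called against 3.92% of all genes), with a list median of -0.07 beside -0.02 over all genes. Of 29 HOX genes, 1 fell (3.45%, near the 3.92% of all genes), HOXA9 (-1.47 ± 0.31, adjusted p = 0.018, and -1.12 ± 0.34, adjusted p = 0.28 with all arrays). Over all 26 lists, which hold 645 genes on the array, NOTUM and FABP7 were the genes that passed with all arrays.

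**Figure D2:**
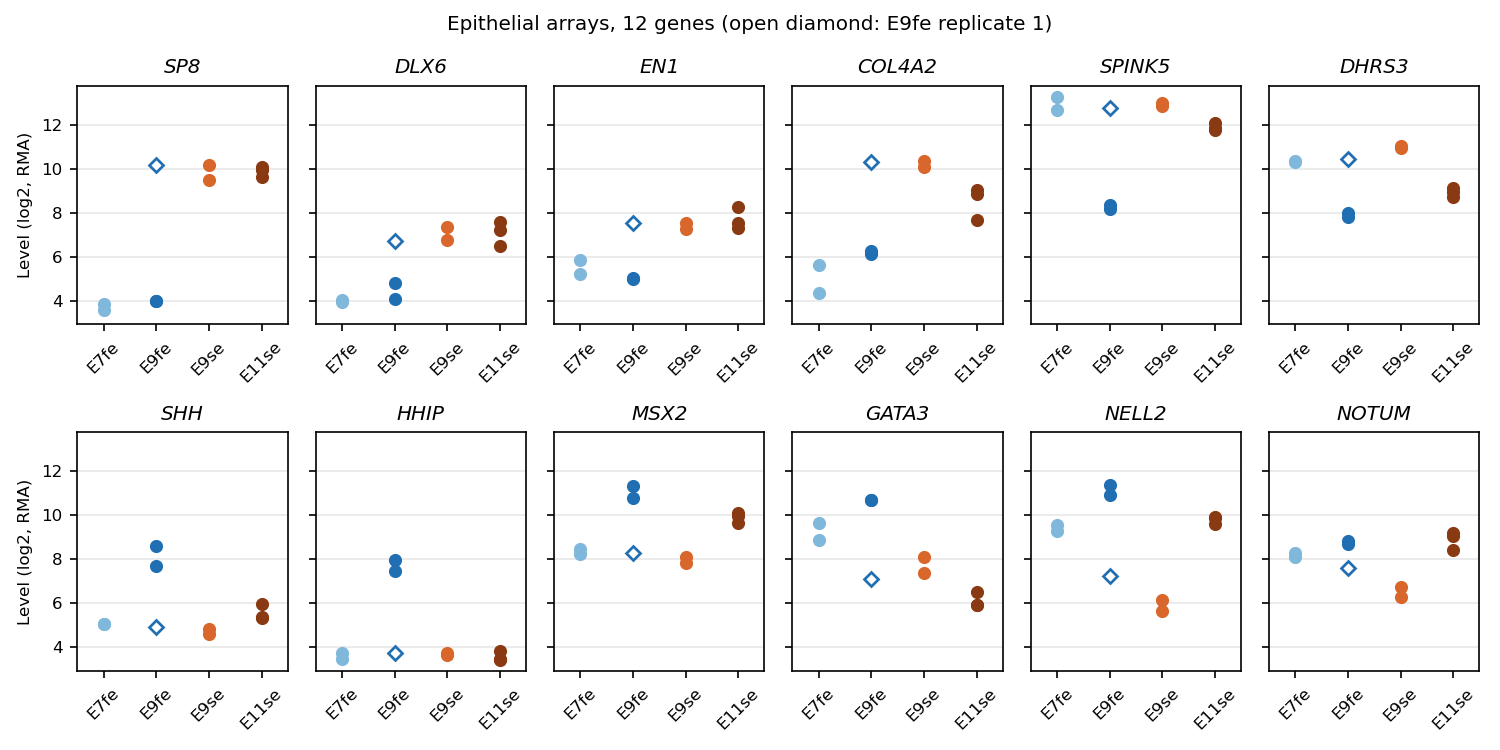
Levels (log2, y axis) of 12 genes on each epithelial array, by group (x axis: E7fe, 2 arrays; E9fe, 3; E9se, 2; E11se, 3). The open diamond is E9fe replicate 1, which lies nearer to the E9se mean than to E9fe replicates 2 and 3 in every panel, by the least for NOTUM (7.62). The upper row holds genes higher and the lower row genes lower in E9se than in E9fe replicates 2 and 3.

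The hedgehog ligand and its antagonist were the placode and bud genes that passed without E9fe replicate 1. SHH was at 7.67 and 8.60 in E9fe replicates 2 and 3 and at 4.82 and 4.60 in E9se, a difference of -3.43 ± 0.29 (adjusted p = 6.3e-06). E9fe replicate 1 had 4.93, as in scale, and with it the difference was -2.36 ± 0.65 (adjusted p = 0.22). HHIP, which binds hedgehog ligands and is induced by them, was at 7.98 and 7.46 in E9fe replicates 2 and 3 and between 3.43 and 3.83 in all E7fe, E9se and E11se arrays, with 3.76 in E9fe replicate 1 (-4.004 ± 0.71, adjusted p = 0.0046, and -2.68 ± 0.97, adjusted p = 0.44 with all arrays). The call for HHIP was lost in 2 of the 4 fits that left out one more array. In E9 mesenchyme HHIP was at 7.99 to 11.2. Like HHIP, SHH was low in E7fe (5.04 and 5.08) and E11se (5.35 to 5.97), so among the epithelial arrays both genes were high on 2 alone. Of 28 placode and bud genes, these 2 fell and 26 did not pass (7.14% called against 3.92% of all genes). EDAR, the placode receptor of ectodysplasin, was at 8.72 and 8.91 in E9se and 8.41 to 8.94 in E9fe (0.14 ± 0.59, adjusted p = 0.9996). FGF20, a placode ligand, was at 6.71 and 6.74 in E9se, 7.10 to 7.92 in E9fe and 10.05 and 10.63 in E7fe (-0.43 ± 0.30, adjusted p = 0.84). LEF1 and CTNNB1, which carry the WNT signal to DNA, differed by -0.92 ± 0.35 (adjusted p = 0.32) and 0.04 ± 0.16 (adjusted p = 0.9996). FGF10, a mesenchymal ligand, stayed between 3.50 and 4.08. DLL1, a Notch ligand, stayed between 3.84 and 4.78, and none of 19 Notch pathway genes passed.

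WNT and TGF-beta family genes moved in both directions without E9fe replicate 1. WNT3, a canonical WNT ligand of ectoderm, was at 10.23 and 10.32 in E9se and 7.20 and 7.62 in E9fe replicates 2 and 3 (difference 2.87 ± 0.46, adjusted p = 0.0021), and WNT2 at 7.68 and 7.18 against 5.12 and 5.45 (2.14 ± 0.28, adjusted p = 0.00048). WNT11, a ligand known for acting without beta-catenin, went the other way, with 6.99 and 6.81 in E9se and 9.95 and 9.94 in E9fe replicates 2 and 3 (-3.04 ± 0.27, adjusted p = 1.0e-05). In E9 mesenchyme WNT11 was at 10.25 to 11.22. E9fe replicate 1 had 10.31, 7.20 and 7.66 for the 3 ligands, within or near the scale range for WNT3 and WNT2 and nearer to scale for WNT11. WNT2B was lower in E9se as well (-1.99 ± 0.39, adjusted p = 0.010). With that array the differences were 1.90 for WNT3, 1.50 for WNT2, -2.28 for WNT11 and -1.46 for WNT2B, with adjusted p values of 0.099 to 0.42. Of 53 WNT pathway genes, 2 rose and 5 fell without E9fe replicate 1, NOTUM among them, and 46 did not pass (13.2% called against 3.92% of all genes, list median 0.04). Of 38 BMP and TGF-beta genes, 1 rose and 3 fell (10.5% called, list median -0.07). TGFBI, a matrix protein named for its induction by TGF-beta, was at 4.24 and 4.06 in E9se, 7.77 and 8.04 in E9fe replicates 2 and 3 and 4.44 in replicate 1 (-3.75 ± 0.60, adjusted p = 0.0022). In E9 mesenchyme TGFBI was at 7.04 to 9.815. The ligand genes TGFB3 and BMP5 fell by 1.63 and 2.36 (adjusted p = 0.0036 and 0.015), and the receptor gene TGFBR1 rose by 1.23 (adjusted p = 0.028). Over all arrays these differences were -2.60 for TGFBI, -1.26 for TGFB3, -1.48 for BMP5 and 0.98 for TGFBR1, with adjusted p values of 0.18 to 0.62. BMP2 and BMP7, ligands of the bud epithelium, did not pass (-0.77 ± 0.41, adjusted p = 0.64 and 0.09 ± 0.54, adjusted p = 0.9996).

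A pair of genes that limit retinoic acid was higher in scale epithelium without E9fe replicate 1. DHRS3, which turns retinal back into retinol, was at 11.03 and 10.94 in E9se and 7.79 and 7.97 in E9fe replicates 2 and 3 (difference 3.10 ± 0.27, adjusted p = 1.0e-05), and CYP26A1, which degrades retinoic acid, at 6.33 and 6.06 against 5.13 and 4.74 (1.26 ± 0.20, adjusted p = 0.0023). E9fe replicate 1 was at 10.45 and 6.57. In E7fe both genes were high too, DHRS3 at 10.29 and 10.36 and CYP26A1 at 6.15 and 6.57. RXRG, a retinoid X receptor, was lower in E9se (-1.53 ± 0.34, adjusted p = 0.022). With all arrays the differences were 2.25 for DHRS3, 0.71 for CYP26A1 and -1.12 for RXRG, with adjusted p values of 0.15 to 0.72. The remaining 13 of 16 retinoic acid genes did not pass (18.8% called against 3.92% of all genes), and the list median was -0.05.

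Of the 26 gene lists, that of pigment cell genes had the largest share of calls. The lists were written with earlier results of these data known, so their shares are no independent evidence. Of 24 neural crest and pigment cell genes on the array, 10 fell, none rose and 14 did not pass without E9fe replicate 1 (41.7% against 3.92% of all genes), with a list median of -1.39. None passed with all arrays, where the list median was -0.77. GPR143, a receptor of the melanosome membrane, was at 5.43 and 5.78 in E9se and 9.87 and 9.36 in E9fe replicates 2 and 3 (difference -4.01 ± 0.55, adjusted p = 0.00063). DCT, an enzyme of melanin synthesis, was at 6.87 and 7.04 against 10.52 and 9.61 (-3.11 ± 0.36, adjusted p = 0.00017). SOX10, the neural crest transcription factor, was at 6.35 and 6.39 against 8.42 and 8.25 (-1.96 ± 0.30, adjusted p = 0.0014). EDNRB, an endothelin receptor, fell by 2.67 (adjusted p = 0.0092), from 6.86 and 5.95 in E9fe replicates 2 and 3. It was at 6.79 to 8.185 in E11se and 6.07 to 7.27 in E9 mesenchyme, unlike the summed level of the list, which was low in E11se. EDN2, an endothelin ligand that is not in the list, also fell, at 3.95 and 3.78 against 8.04 and 7.40 (-3.85 ± 0.31, adjusted p = 4.4e-06). On E9fe replicate 1 these genes were close to the scale level or below it, with 5.04 for GPR143, 5.72 for DCT, 6.64 for SOX10 and 4.04 for EDN2. When it was kept in, the differences were -2.48 for GPR143, -1.67 for DCT, -1.40 for SOX10, -1.88 for EDNRB and -2.63 for EDN2, with adjusted p values of 0.24 to 0.76. The log2 of the summed levels of the 24 genes was 14.37 and 14.19 in E9fe replicates 2 and 3, 12.72 in replicate 1, 12.55 and 12.94 in E9se, 14.31 and 14.71 in E7fe and 12.67 to 12.88 in E11se. Of the pigment genes that did not pass, 3 are given, chosen after their values were seen. TYRP1, a melanin enzyme, differed by -1.33 ± 0.48 (adjusted p = 0.26) and KIT, the receptor that melanoblasts need, by -1.82 ± 0.53 (adjusted p = 0.11). EDNRB2, the avian melanoblast endothelin receptor, differed by -1.95 ± 0.53 (adjusted p = 0.078) on its brightest probe set, while 1 of its 2 probe sets passed. A pair of red cell genes moved the same way. The globin genes HBA1 and HBAD fell by 2.75 and 3.06 (adjusted p = 0.012 and 0.023), while HBZ differed by -0.26 (adjusted p = 0.9996) and 10 of 12 erythroid genes did not pass (16.7% called). With every array included they were -1.77 for HBA1 and -2.02 for HBAD, with an adjusted p of 0.56 each. The log2 of the summed levels of the 12 was 13.12 and 13.55 in E9fe replicates 2 and 3, 12.07 in replicate 1 and 12.05 and 12.26 in E9se.

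A set of type IV collagen chains, network formers of the basement membrane, was higher in scale epithelium without E9fe replicate 1. COL4A2 was at 10.07 and 10.35 in E9se and 6.11 and 6.28 in E9fe replicates 2 and 3 (difference 4.02 ± 0.59, adjusted p = 0.0011), and 5 of its 6 probe sets passed. COL4A1 was at 7.74 and 7.74 against 4.04 and 4.62 (3.41 ± 0.58, adjusted p = 0.0035), and COL4A4 rose by 2.15 (adjusted p = 0.00067). E9fe replicate 1 was at 10.28, 7.68 and 8.28 for the 3 chains, within, close to or above the scale levels. With it the differences were 2.65 for COL4A2, 2.29 for COL4A1 and 1.30 for COL4A4, with adjusted p values of 0.40 to 0.57. In E9 scale mesenchyme COL4A2 was at 8.97 and 10.68, COL4A1 at 6.97 and 8.87 and COL4A4 at 4.76 and 5.25. The laminin chain gene LAMB4, which is not in the list of basement membrane genes counted here, rose by 5.17 (adjusted p = 0.00093), from 6.17 and 6.89 in E9fe replicates 2 and 3 to 11.62 and 11.77 in E9se. FRAS1, which anchors epithelium to the basement membrane, was lower (-1.42 ± 0.35, adjusted p = 0.041). All arrays together gave 3.41 for LAMB4 and -1.16 for FRAS1, with adjusted p values of 0.27 to 0.40. Of 38 basement membrane genes the 3 collagen chains rose, FRAS1 fell and 34 did not pass (10.5% called against 3.92% of all genes, list median 0.03).

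Some dermal genes were higher in E9se than in E9fe replicates 2 and 3, as was the marker sum given above. Of 33 dermal and mesenchymal markers, 5 rose, 2 fell and 26 did not pass (21.2% called against 3.92% of all genes), with a list median of 0.30. TWIST2 rose by 3.02 ± 0.38 (adjusted p = 0.00036), the fibril-associated collagen gene COL12A1 by 2.23 ± 0.42 (adjusted p = 0.0071) and LUM, a small proteoglycan of collagen fibrils, by 1.99 ± 0.27 (adjusted p = 0.00066). With E9fe replicate 1, which had the highest level of each among the 5 arrays (9.39, 9.70 and 10.59), the differences were 1.09, 0.94 and 0.69 and none passed. COL1A1, COL1A2 and DCN, major dermal matrix genes, differed by 1.05 ± 0.31 (adjusted p = 0.12), 0.64 ± 0.25 (adjusted p = 0.33) and 0.25 ± 0.16 (adjusted p = 0.82). COL3A1, another dermal collagen gene, chosen after its values were seen, rose by 1.61 ± 0.20 (adjusted p = 0.00035), with 4 of 6 probe sets passing. It was at 12.895 and 12.99 in E9se, 11.32 and 11.35 in E9fe replicates 2 and 3 and 13.16 in replicate 1. Its difference with all arrays was 1 ± 0.39 (adjusted p = 0.49). The cartilage collagens COL9A1 and COL11A1 rose by 2.56 and 1.51 (adjusted p = 0.0019 and 0.018), and MMP2, a gelatinase, by 1.71 (adjusted p = 0.040). TNC, a matrix glycoprotein, and LOX, which cross-links collagen, were lower, with differences of -1.54 ± 0.34 (adjusted p = 0.023) and -0.94 ± 0.23 (adjusted p = 0.044). With the array kept in, none of these passed. The differences were then 1.66 for COL9A1, 0.86 for COL11A1, 0.59 for MMP2, -1.20 for TNC and -0.99 for LOX, with adjusted p values of 0.099 to 0.99. POSTN, a matrix protein of bud and dermis, did not pass (-0.64 ± 0.26, adjusted p = 0.36).

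Epidermal differentiation genes moved in both directions without E9fe replicate 1. SPINK5, a serine protease inhibitor of the epidermis, was higher, at 12.996 and 12.82 in E9se and 8.18 and 8.33 in E9fe replicates 2 and 3 (4.66 ± 0.46, adjusted p = 3.8e-05). It was as high in E7fe (13.26 and 12.64) and in E9fe replicate 1 (12.74), so the low level was that of 2 arrays. GATA3, which drives differentiation of the epidermis, was at 8.11 and 7.38 in E9se, 10.69 and 10.71 in E9fe replicates 2 and 3 and 7.12 in replicate 1 (-2.95 ± 0.30, adjusted p = 4.9e-05). KRT6A, a stress and appendage keratin, fell by 1.79 (adjusted p = 0.013), the gap junction gene GJB6 by 1.87 (adjusted p = 0.0087) and the desmosomal cadherin gene DSC1 by 1.28 (adjusted p = 0.031). NCAM1, a neural cell adhesion molecule, fell by 1.46 (adjusted p = 0.0092), with 1 of its 3 probe sets passing. Its level was higher in E9 mesenchyme, at 8.92 to 10.11, than in E9 epithelium, at 5.04 to 6.795. The values with all arrays were 3.16 for SPINK5, -1.76 for GATA3, -1.18 for KRT6A, -1.03 for GJB6, -0.86 for DSC1 and -1.24 for NCAM1, with adjusted p values of 0.12 to 0.80. Of 26 epidermal transcription factors 1 rose and 4 fell (19.2% called), of 20 keratin and cornified envelope genes 2 rose and 1 fell (15.0%), and of 35 junction genes 4 fell and none rose (11.4%), against 3.92% of all genes. Of 18 epithelial identity markers only ELF3, an epithelial ETS factor, passed (5.56%, 1.38 ± 0.24, adjusted p = 0.0044, and 1.10 ± 0.27, adjusted p = 0.16 with all arrays). The 1 corneous beta-protein gene that could be matched, LOC396480, stayed between 3.15 and 3.52.

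Large differences also lay outside the lists counted above. DCX, given below, is in one of the 26 lists. NELL2, a secreted glycoprotein, was at 6.15 and 5.65 in E9se and 10.93 and 11.35 in E9fe replicates 2 and 3, with 7.26 in E9fe replicate 1, a difference of -5.24 ± 0.24 (adjusted p = 1.1e-08) without that array and -3.94 ± 0.76 (adjusted p = 0.062) with it. GHRH, the hypothalamic releasing hormone of growth hormone, was at 8.60 and 8.60 in the same E9fe arrays and between 3.37 and 4.08 in E7fe, E9se and E11se, with 3.54 in E9fe replicate 1 (-4.54 ± 0.17, adjusted p = 2.5e-09). NECAB1, a calcium binding protein of neurons, was at 5.42 and 5.01 in E9se and 9.86 and 9.53 in those E9fe arrays (-4.48 ± 0.57, adjusted p = 0.00037). LY6CLEL and CYP2AB4, a cytochrome P450 gene, fell by 4.57 and 4.18 and ISM1, a secreted inhibitor of vessel growth, by 3.89. Higher in E9se were CMBL, a hydrolase gene (9.45 and 8.97 against 4.25 and 3.66, difference 5.26 ± 0.44, adjusted p = 6.3e-06), STK32B, a kinase gene (9.08 and 8.95 against 4.06 and 3.83, 5.07 ± 0.32, adjusted p = 5.6e-07), and LRRC17, a secreted leucine-rich repeat protein gene (10.37 and 10.54 against 5.43 and 5.47, 5.005 ± 0.22, adjusted p = 9.0e-09). In E9 mesenchyme LRRC17 was at 11.13 to 11.62, NECAB1 at 7.40 to 10.48, ISM1 at 7.09 to 8.965 and DCX, given next, at 9.74 to 11.50. E9fe replicate 1 lay between the groups for CMBL and STK32B (7.92 and 7.62) and near scale for LRRC17 (10.12). GRIK1, a kainate receptor subunit, DCX, a microtubule protein of migrating neurons, and LOC422926 rose by 4.11, 3.96 and 3.90 (adjusted p = 1.5e-06, 0.00051 and 0.00026). Kept in, that array brought the differences to -2.85 for GHRH, -3.38 for NECAB1, -3.22 for LY6CLEL, -2.77 for CYP2AB4, -2.73 for ISM1, 3.94 for CMBL, 3.85 for STK32B, 3.45 for LRRC17, 2.72 for GRIK1, 2.67 for DCX and 2.85 for LOC422926, with adjusted p values of 0.062 to 0.37. These are values of the brightest probe sets. Of the 3 probe sets of STK32B, 1 that is less bright passed in limma with all arrays (2.10 ± 0.29, adjusted p = 0.013).

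Of 53 calcium channel and calcium signalling genes 1 passed without E9fe replicate 1 (1.89%, against 3.92% of all genes). This was CACNA1D, an L-type calcium channel subunit, at 7.44 and 6.71 in E9se, 5.22 and 4.61 in E9fe replicates 2 and 3 and 6.94 in replicate 1 (2.16 ± 0.53, adjusted p = 0.044, and 1.49 ± 0.61, adjusted p = 0.54 with all arrays). It lost its call whichever further array was left out. The channel genes CACNA1H and CACNA2D1 and the store-operated channel gene ORAI1 differed by -0.21 ± 0.35 (adjusted p = 0.9996), 0.81 ± 0.28 (adjusted p = 0.23) and -0.08 ± 0.20 (adjusted p = 0.9996). The kinase genes CAMK1G, CAMK4 and PRKCB differed by 1.01 ± 0.32 (adjusted p = 0.17), -0.72 ± 0.20 (adjusted p = 0.088) and 0.21 ± 0.25 (adjusted p = 0.9996). Of 31 ephrin, EPH and guidance genes, SEMA3D and EPHB6 rose by 1.71 and 0.97 and SLIT3 fell by 2.20 (adjusted p = 0.011, 0.011 and 0.0062, 9.68% called). Of 42 matrix proteases and inhibitors 2 rose and 2 fell (9.52%), among the latter MME, a membrane peptidase, by 3.17 (adjusted p = 0.00017). Of 35 cell cycle genes 1 fell (2.86%), CDC20 (-0.78 ± 0.18, adjusted p = 0.028), with a list median of -0.38. With all 5 arrays the differences were 1.12 for SEMA3D, 0.67 for EPHB6, -1.55 for SLIT3, -2.33 for MME and -0.39 for CDC20, with adjusted p values of 0.17 to 0.91. None of the 18 endothelial, 24 skeletal muscle and 16 immune markers of these lists passed. BTLA and TNFRSF18, given above, are not in the immune list. Of 16 nerve and Schwann cell markers 2 rose and 1 fell without E9fe replicate 1 (18.8% called against 3.92% of all genes, list median -0.04).

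Of the 84 genes named by rule that passed without E9fe replicate 1, 47 passed whichever further array was left out. BMP5, CACNA1D, CDC20, COL11A1, CTSK, DSC1, FRAS1, KRT222, LOX, MYLK, RXRG, SEMA3D and TGFBR1 lost their call whichever of the other 4 arrays was left out, and ADAMTS18, COL12A1, COL4A1, CYP26A1, EDNRB, ELF3, EPHB6, GALNTL6, GJB6, HBA1, HBAD, HHIP, HOXA9, IRX1, KLF5, KRT6A, LMX1B, MMP2, NCAM1, RUNX2, SLIT3, TGFB3, TNC and WNT2B lost it for 1 to 3 of them. Some genes passed without E9fe replicate 1 on 1 probe set of several. For DLX6, HHIP, WNT2, HOXA9, RXRG and EPHB6 it was 1 of 2. For BMP5, COL9A1, SEMA3D, LOC422926, HBA1 and HBAD it was 1 of 3, and for TNC 1 of 4.

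**Figure D3:**
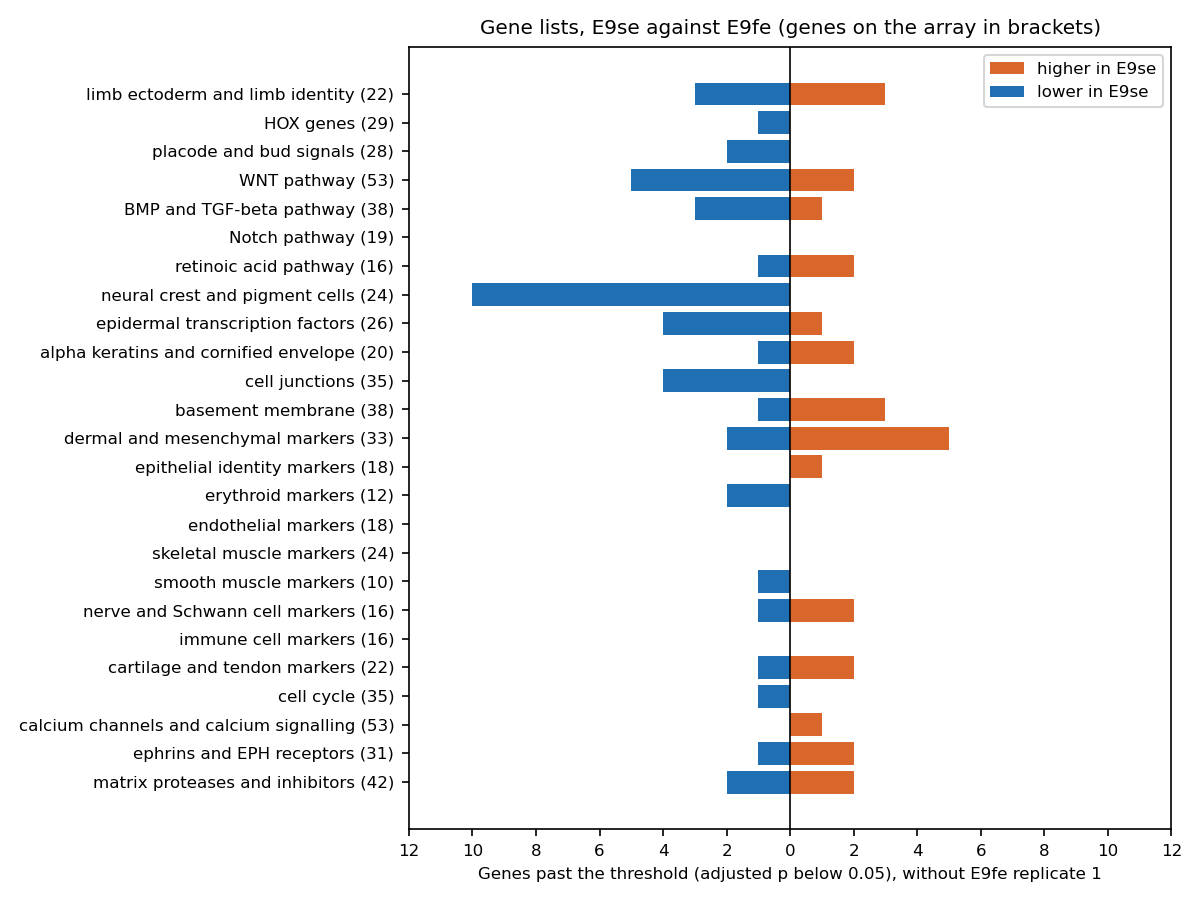
Number of genes of each list (y axis, genes on the array in brackets) that were higher (right, orange) or lower (left, blue) in E9se than in E9fe at an adjusted p below 0.05 without E9fe replicate 1 (x axis). Of 24 neural crest and pigment cell genes 10 were lower, and the Notch, endothelial, skeletal muscle and immune lists have no bar. The list of corneous beta-proteins, with 1 gene, is not drawn.

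The 510 genes were then placed on a line on which the mean of E9fe replicates 2 and 3 is 0 and the mean of E9se is 1, as a description of the other epithelial arrays, with no test. E9fe replicate 1 had a median position of 0.77 over the 260 genes higher in scale and 0.91 over the 250 lower, and was nearer to scale for 206 and 233 of them. The E7fe arrays lay at 0.48 and 0.43 over the higher genes and 0.62 and 0.62 over the lower ones, and the E11se arrays at 0.29 to 0.57 and 0.74 to 0.78. Group means were then split at a position of 0.5, so a gene nearer to one level can still lie about midway. Of the 260 higher genes 79 were nearer to feather in both E7fe and E11se, such as BTLA, PGR and STK32B. Nearer to scale in E11se but not in E7fe were 63, such as SP8, DLX6 and COL4A2. Nearer to scale in E7fe but not in E11se were 70, such as FABP7 and GPM6A, and in both 48, such as SPINK5, LRRC17 and LAMB4. Of the 250 lower genes 95 were nearer to scale in both, such as SHH, HHIP, GHRH and EDN2. Another 86 were nearer to scale in E11se but not in E7fe, such as SOX10, GATA3 and DCT, the last 2 about midway in E7fe (0.49 and 0.47). Nearer to scale in E7fe but not in E11se were 52, such as MME and LY6CLEL, and nearer to feather in both 17, such as NOTUM and NELL2. These positions share the arrays that define the line.

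**Figure D4:**
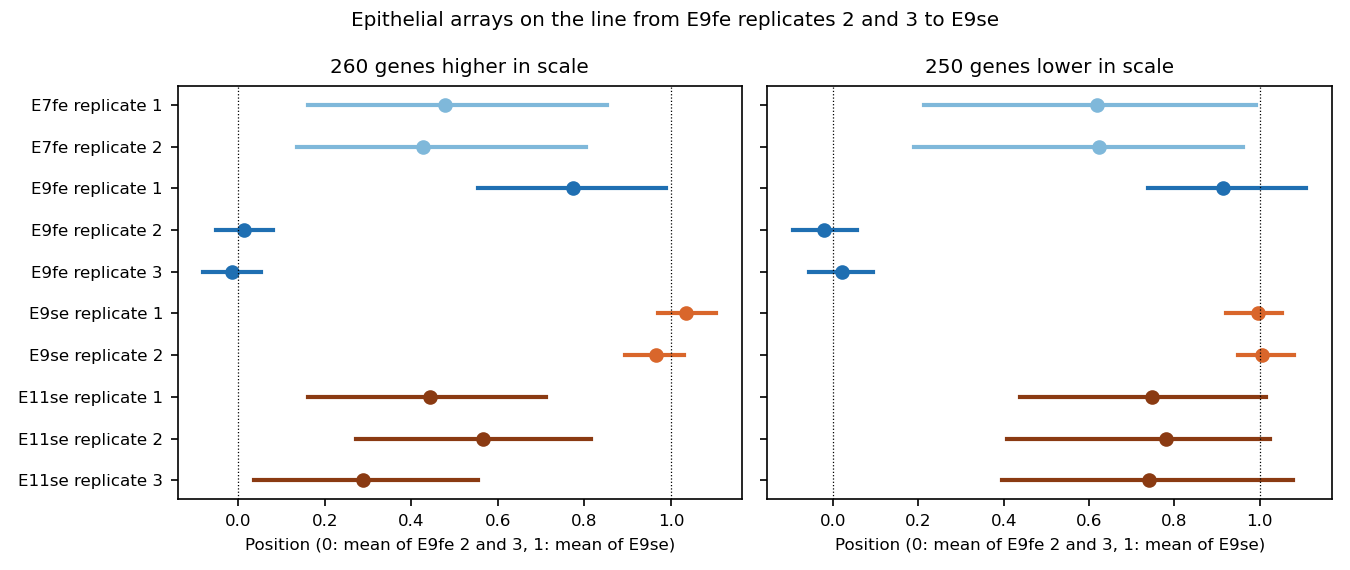
Position of each epithelial array (y axis) on the line from E9fe replicates 2 and 3 (0) to E9se (1), as the median (point) and the quartiles (bar) over the 260 genes higher (left) and the 250 genes lower (right) in E9se without E9fe replicate 1. E9fe replicate 1 lies at 0.77 and 0.91, nearer to E9se than to the other E9fe arrays, while E7fe and E11se lie between.

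Whether the E9 difference was particular to epithelium was tested against E9 mesenchyme, with which it shares no array. Whether the arrays of both compartments share embryos is not given in the sources used here. Both groups of E9 mesenchyme were of the same breed, regions and age. With all arrays the difference in epithelium minus that in mesenchyme passed for no probe set in limma (2014 at an unadjusted p below 0.05). The array labelled E9fm replicate 1 also stood apart, with EPCAM at 9.63 against 6.18 and 5.03 in the other E9fm arrays and TBX4 at 10.39 against 5.29 and 5.35, where E9sm had 11.16 and 10.17. Its label is in question in the same way. It too was singled out from these same values, so p-values without it are no independent evidence. Without it and E9fe replicate 1, 1082 probe sets passed (2.81%), 618 with a more positive and 464 with a more negative difference in epithelium, which were 570 genes (4.38%). SP8 differed by 5.83 in epithelium and 0.51 in mesenchyme (5.32 ± 0.38, adjusted p = 2.1e-06), COL4A2 by 4.02 in epithelium and -0.83 in mesenchyme (4.85 ± 0.74, adjusted p = 0.0019) and EN1 by 2.40 in epithelium and -0.87 in mesenchyme (3.27 ± 0.45, adjusted p = 0.00082). SHH differed by -3.43 in epithelium and 0.42 in mesenchyme (-3.85 ± 0.39, adjusted p = 5.5e-05), NELL2 by -5.24 in epithelium and -0.01 in mesenchyme (-5.22 ± 0.32, adjusted p = 5.3e-07) and NECAB1 by -4.48 in epithelium and 2.14 in mesenchyme (-6.62 ± 0.46, adjusted p = 2.1e-06). SP8 and SHH were low on all E9 mesenchyme arrays, at 3.75 to 5.51 and 4.27 to 4.99. For such genes the test cannot tell an absent difference in mesenchyme from a level too low to show one.

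Several of the genes with the largest difference between compartments differed mainly in mesenchyme. ZIC1, a zinc finger factor of dorsal mesoderm, differed by 1.52 in epithelium and -6.98 in mesenchyme, with 12.07 and 12.22 in E9fm replicates 2 and 3 and 3.75 and 6.59 in E9sm, and stayed between 3.10 and 4.91 in the E9 epithelium. HOXC9, a homeobox factor of trunk level, was at 9.69 and 9.56 in the same E9fm arrays and 5.02 and 4.94 in E9sm, but between 8.78 and 9.97 in the epithelium of both regions. PENK, which encodes enkephalin, differed by 2.31 in epithelium and -4.25 in mesenchyme. TBX4 and SALL1, a limb bud zinc finger factor, differed by 0.39 and -0.05 in epithelium and 5.34 and 5.19 in mesenchyme. The plot of both differences shows TBX4, SALL1, PITX1, ZIC1 and HOXC9 spread along the mesenchymal axis. SP8, DLX6, EN1, COL4A2, SHH and NELL2 are spread along the epithelial axis.

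**Figure D5:**
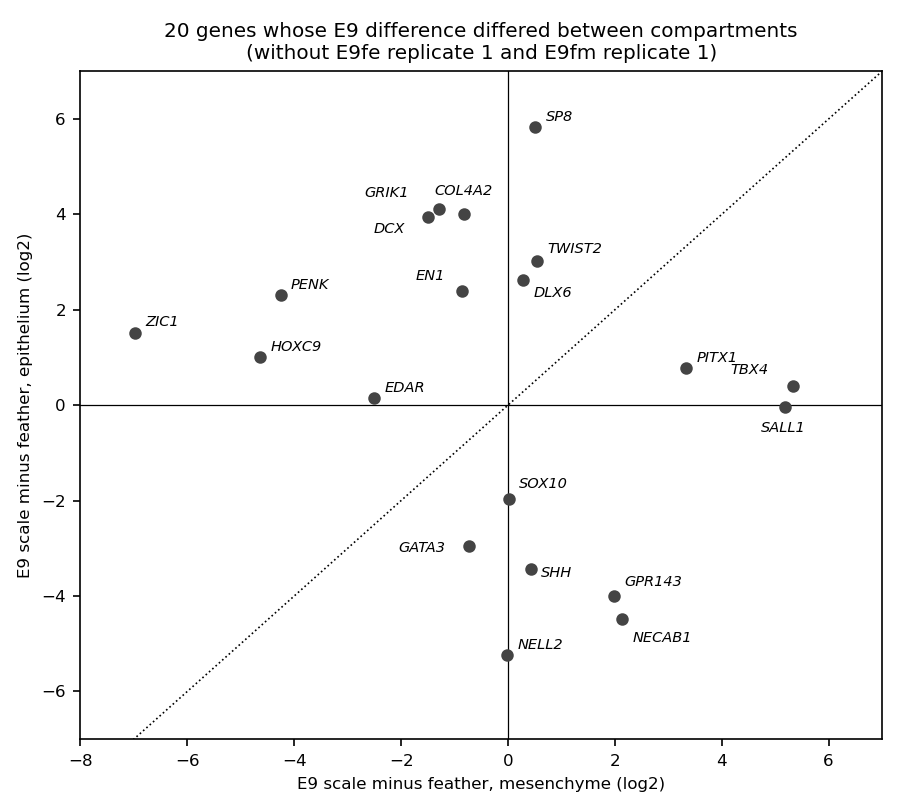
Difference between scale and feather at E9 in mesenchyme (x axis, log2) and in epithelium (y axis, log2) for 20 of the named genes whose difference passed the test between the compartments, without E9fe replicate 1 and E9fm replicate 1. Other named genes that passed are not drawn. The dotted line marks equal differences. Above the zero line lie genes higher in scale epithelium, such as SP8 at 5.83, and below it genes lower in scale epithelium, such as NELL2 at -5.24.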

How the data were processed

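The deposited values are log2 levels per probe set of Affymetrix chicken arrays, which the authors background-corrected, quantile-normalized and summarised with RMA in the affy package, per the labels and the study's methods (no version given in the sources used here). The 20 arrays have medians of 5.62 to 5.69, and their number limits the precision. Of 38535 probe sets, 96 array controls were left out. GEO's platform annotation, which can be old, gives 1 symbol to 27168 probe sets, several to 177 and none to 11094, and 13009 genes were each represented by the probe set of highest mean over all arrays. The gene IDs of 26853 of the 27168 were in the RefSeq gene table, and no symbol changed.

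Array groups follow the labels, which call the arrays biological replicates of pooled skins. The study's methods count 2 arrays per epithelial and 3 per mesenchymal group, which differs from the labels. limma 3.58.1 in R 4.3.3 fitted 1 mean per group to all 20 arrays with empirical Bayes moderation, and p-values were adjusted by Benjamini-Hochberg over all 38439 probe sets, with 0.05 as the threshold. The spread is thus shared by 8 groups, so a gene that varies in 1 mesenchymal group has a wide error in epithelium too. Differences are given ± SE of the fit. The scripts were tested on simulated data, and tables were made with Python 3.11.15, numpy 2.4.6, pandas 2.3.3 and matplotlib 3.10.9.

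Named genes are the up to 10 largest each way that passed with groups not overlapping, with all arrays and without E9fe replicate 1, up to 3 each way of each of 26 gene lists without E9fe replicate 1, 35 genes of the study's subject whatever their values, and the 5 each way with the largest difference between compartments. The comparison, the genes and the lists were chosen with earlier results of these data known. Alternatives were leaving out arrays, fewer groups in the fit, a replicate block, a minimum mean level of 5, median centring, a trended robust fit, array weights and the mean of a gene's probe sets. Probe sequences were not used here.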

Additional observations from a re-analysis of the deposited data

Results flagged for a closer look

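A difference between groups drew attention to 20 of the genes named by rule. In each, the scale minus feather difference at E9 differed between epithelium and mesenchyme in limma's test of that difference, without E9fe replicate 1 and E9fm replicate 1 (adjusted p 2.8e-07 to 0.041). In the same test with all arrays none of them passed, with adjusted p from 0.30 to 1, and the 20 values kept their sign. Both arrays were singled out from these same values, SP8, SHH and TBX4 among them, so p-values without them are no independent evidence.

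More positive in epithelium by that test were ZIC1 (8.50), PENK (6.56), HOXC9 (5.65), DCX (5.45), GRIK1 (5.40), SP8 (5.32), COL4A2 (4.85), EN1 (3.27), EDAR (2.64), TWIST2 (2.47) and DLX6 (2.34). More negative in epithelium were NECAB1 (-6.62), GPR143 (-5.99), SALL1 (-5.24), NELL2 (-5.22), TBX4 (-4.95), SHH (-3.85), PITX1 (-2.56), GATA3 (-2.22) and SOX10 (-1.98). The values are log2 differences in epithelium minus those in mesenchyme. For EDAR the epithelial difference was 0.14 and the mesenchymal one -2.50, and for TWIST2 they were 3.02 and 0.55. Dixon's test for an outlying array was not run, since the E9 groups hold 2 or 3 arrays each.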

How the results depend on the processing

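With all arrays 29 probe sets passed. The count was 0 with only the 4 epithelial groups in the fit (2847 at an unadjusted p below 0.05 in limma), 0 with only E9fe and E9se (3327), 3 with a minimum mean level of 5, 64 with a trended robust fit, 1391 with array weights, in which E9fe replicate 1 had a weight of 0.479, 1228 without E9fe replicate 1 and E9fm replicate 1, and 1640 with only E9fe and E9se without E9fe replicate 1. It was 33 with median centring. Leaving out single arrays gave 0 to 965, with 965 for E9fe replicate 1. More than 5-fold apart were 59 probe sets, and 200 without that array. Without E9fe replicate 1, 965 passed, 1640 with only E9fe and E9se in the fit and 439 to 508 after leaving out one more array, alternatives chosen after seeing the data. Median centring, the robust fit, the minimum level, the 4 epithelial groups and leaving out E9fm replicate 1 gave 805 to 1228. The difference between compartments passed for 0 probe sets with all arrays, 1 with the robust fit, 159 with array weights, 1082 without both arrays and 0 to 447 without single arrays. The 1082 became 630 to 1470 when one more array was left out. The cause of these shifts was not tested.

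Whether arrays of the same number share a batch is not given in the sources used here. Deviations from the group means correlated at -0.08 (replicate 1) and -0.29 (replicate 2) between E9fe and E9se. The deviations of the 2 E9se arrays mirror each other, so E9fe replicate 2 correlated at 0.29 with E9se replicate 1. With the replicate number as a block, 23 probe sets passed with all arrays, 942 without E9fe replicate 1 and 9 for the compartments, and without E9fe replicate 1 CACNA1D, DSC1, KRT222, LOX, MMP2, RUNX2 and RXRG missed the threshold.

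Of the 114 genes named by rule, 71 did not pass with all arrays and passed without E9fe replicate 1, and 66 gained a call with array weights, which keep that array at a low weight. Many of these genes were named because they passed without E9fe replicate 1, so the 71 follows in part from the naming. The weights were estimated from the same values, so the 66 is no separate support. Where a difference changed sign against its value with all arrays, it passed in neither fit, though TWIST2, LUM and MMP2 passed without E9fe replicate 1 and COL1A1 without it and E9fm replicate 1. Without E9fe replicate 1, whether alone, together with E9fm replicate 1 or in a fit of E9fe and E9se only, these were PITX1 0.77, TBX4 0.39, BMP7 0.089, ORAI1 -0.083. With a gene's probe sets averaged and that array left out they were PITX1 0.78, TBX4 0.39, ORAI1 -0.083, SALL1 0.076, with array weights PITX1 0.44, TBX4 0.056, and with the replicate block EPCAM -0.26, CDH1 -0.17. Over the fits without single arrays the differences that changed sign ranged over TWIST2 -0.0018 to 3.02, LUM -0.0016 to 1.99, MMP2 -0.057 to 1.71, DLX5 -0.20 to 0.058, PITX1 -0.53 to 0.77, TBX4 -0.81 to 0.39, FGF10 -0.084 to 0.42, BMP7 -0.64 to 0.089, CTNNB1 -0.069 to 0.071, ORAI1 -0.20 to 0.50, EPCAM -0.057 to 0.10, CDH1 -0.022 to 0.15, COL1A1 -0.065 to 1.05.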
